A study of Rattus norvegicus with 15 samples.

Results

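The 26 probes that the array files name after a gene of the Hoxa, Hoxb, Hoxc or Hoxd cluster were examined, detected or not, out of 41012 probes of rat transcripts on the array and 22503 of them with a gene name. They stand for 25 genes, since Hoxd1 has 2 probes. Intestinal RNA was measured on 15 arrays, 1 rat each, in 3 groups of 5 male rats. Wistar rats were nondiabetic controls of the same age and were not operated on. GK-Sham-PF rats, here called sham rats, were Goto-Kakizaki (GK) rats, a nonobese strain that develops diabetes spontaneously, whose jejunum was cut 16 cm from the ligament of Treitz and rejoined without rearrangement and which were fed no more than the bypass group that ate least. GK-S-30 rats, here called bypass rats, were GK rats given Roux-en-Y gastric bypass with a Roux limb of 30 cm, so that food ran from the stomach pouch into jejunum cut at the same 16 cm. GK rats were operated on at 16 wk of age, and tissue was taken 14 wk later. A piece of 5 cm was taken at 5 cm from the join with the stomach in bypass rats, and at 21 to 26 cm from the ligament of Treitz in the others. One stretch of jejunum is thus compared in its own place, in both strains, and joined to the stomach. Strain, sham surgery and pair feeding cannot be told apart in the comparison of sham with Wistar rats. Nor can strain and bypass surgery in the comparison of bypass with Wistar rats.

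Hox genes encode homeodomain transcription factors that lie in clusters and are used in the order in which they lie, the genes at one end of a cluster in anterior and those at the other end in posterior parts of the embryo. The number in the name is the paralog group, shared by the counterparts in different clusters. In the gut they pattern mainly the mesenchyme, from which smooth muscle and fibroblasts arise, and their products bind DNA together with PBX and MEIS cofactors. Paralog groups 1 to 3 are called anterior here, 4 to 8 central and 9 to 13 posterior.

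The probes that carry the results are shown first, because 8 Hox probes on this array lie in the homeobox, the most alike part of these genes. Each is 60 bases long and is written 5′ to 3′ in the sense of the transcript. In the 4 probes of groups 9 and 10, capitals mark the 47 bases over which all 4 line up.
Hoxc9: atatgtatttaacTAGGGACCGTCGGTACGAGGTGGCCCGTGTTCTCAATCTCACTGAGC
Hoxd9: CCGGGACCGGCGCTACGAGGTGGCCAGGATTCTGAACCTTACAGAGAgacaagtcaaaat
Hoxb9: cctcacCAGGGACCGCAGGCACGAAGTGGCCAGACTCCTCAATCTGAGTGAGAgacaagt
Hoxc10: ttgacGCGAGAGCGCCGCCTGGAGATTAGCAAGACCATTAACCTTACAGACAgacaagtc
Over that stretch 18 bases were the same in all 4 probes. The Hoxc9 and Hoxd9 probes had the same base at 35 of the 47 positions they share, and Hoxd9 and Hoxb9 at 40 of 54. In the rat build rn4, as the files give it, the Hoxc9 probe lies at chr7:141747571-141747630 and the Hoxd9 probe at chr3:57313651-57313710, both on the plus strand. The Hoxb9 probe lies at chr10:85005450-85005509 and the Hoxc10 probe at chr7:141734333-141734392, also on the plus strand.

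The closest pair among the 28 pairs of these 8 probes was Hoxb6 (chr10:85032800-85032859, plus strand) and Hoxb7 (chr10:85020148-85020207, plus strand). Capitals mark the 9 bases at which they differ.
Hoxb6: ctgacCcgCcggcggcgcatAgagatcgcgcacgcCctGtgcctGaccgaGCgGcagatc
Hoxb7: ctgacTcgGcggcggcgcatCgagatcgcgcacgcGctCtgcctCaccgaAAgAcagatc
These probes had the same base at 51 of 60 positions, and how far either binds the transcript of the other was not tested. The Hoxd4 probe, at chr3:57342114-57342173 on the plus strand, lies outside the homeobox and is shown because Hoxd4 passed the test after surgery.
Hoxd4: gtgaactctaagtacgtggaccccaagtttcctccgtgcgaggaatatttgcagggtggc

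Central Hox genes were detected and most anterior and posterior ones were not. Agilent's software marks a spot as well above background when its signal exceeds the local background by a set margin, and 10 of the 26 Hox probes (38.5%) had this mark on all 15 arrays, against 69.9% of all named probes. A further 7 Hox probes (26.9%) had it on no array, against 12.6% of named probes. Of the central genes, 7 of 8 probes were well above background on all 15 arrays, and the eighth, Hoxd4, on 12. Of the anterior genes, 1 of 7 probes (Hoxa2) was detected on every array of any group, and of the posterior genes 2 of 11 (Hoxc9 and Hoxd9). Both belong to group 9, in which 2 of 4 probes passed. No probe of groups 10 to 13 passed, out of 7.

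**Figure D1:**
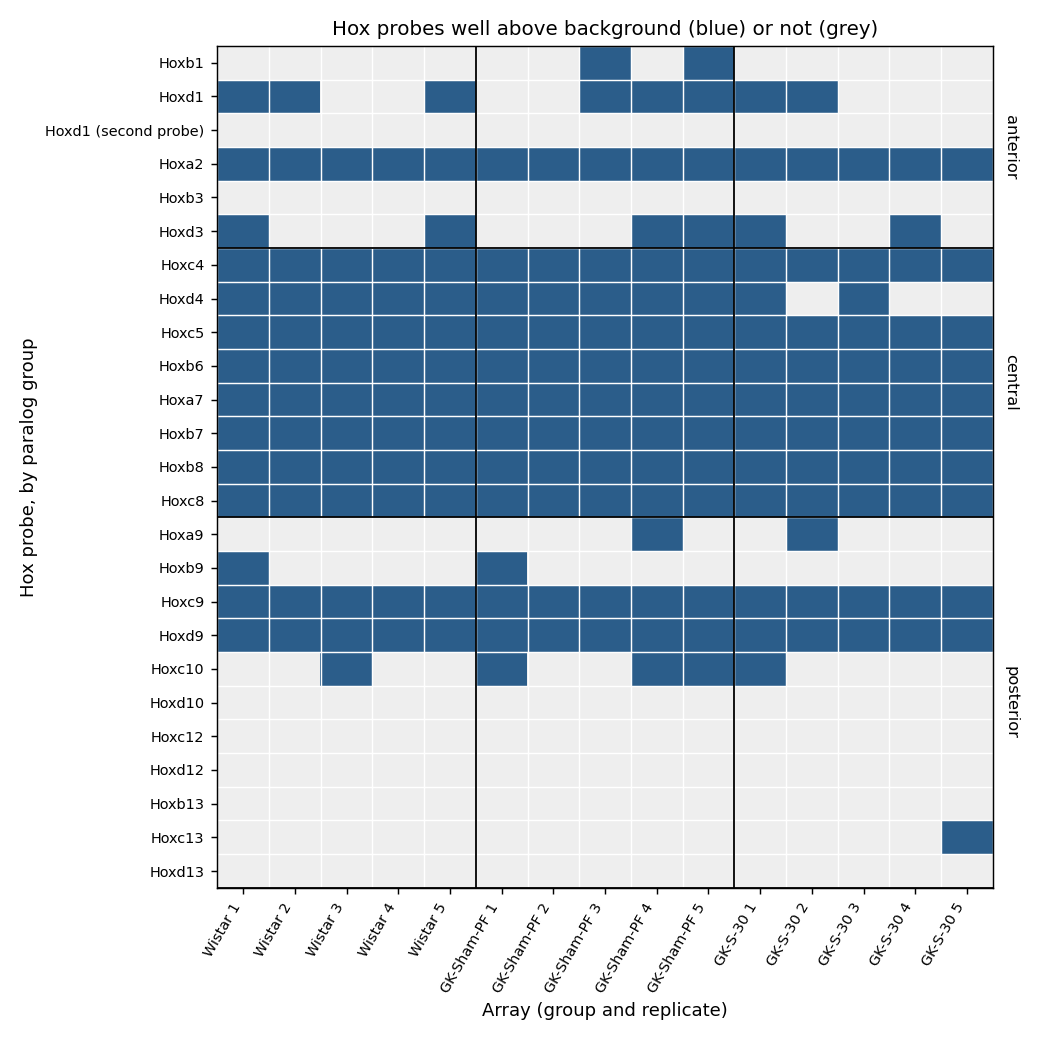
Detection of 25 of the 26 Hox probes (rows, by paralog group) on the 15 arrays (columns, by group), with blue for well above background and grey for not. The central block is filled except for Hoxd4 on 3 bypass arrays, and below Hoxd9 the posterior block holds 6 filled cells.

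The number of Hox probes detected was alike in range in the 3 groups. Between 11 and 14 were well above background on a Wistar array (median 12), between 11 and 15 on a sham array (median 13) and between 11 and 14 on a bypass array (median 11). No probe detected on every array of 1 group was undetected on every array of another.

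The anterior probes were mostly at the edge of detection. Hoxd1 was well above background on 8 arrays (3 Wistar, 3 sham and 2 bypass) by its first probe and on none by its second, so the 2 probes disagree. Hoxd3 was detected on 6 arrays, 2 in each group, and Hoxb1 on 2 sham arrays. Hoxb3 was detected on none.

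The posterior probes outside Hoxc9 and Hoxd9 were dim in each group. Hoxc10, a gene of the hindlimb and lumbar level, was well above background on 1 Wistar, 3 sham and 1 bypass arrays. Hoxb9 had the mark on 1 Wistar and 1 sham array, Hoxa9 on 1 sham and 1 bypass array, and Hoxc13 on 1 bypass array. Hoxb13, Hoxc12, Hoxd10, Hoxd12 and Hoxd13, the genes of the lower trunk, limb and tail levels, were on none. Over the 15 arrays the log2 signal of Hoxb13 ran from 1.09 to 1.29, that of Hoxc12 from 1.27 to 1.54 and that of Hoxd13 from 1.17 to 2.12. Of the posterior probes not tested Hoxa9 spanned the widest range, from 1.07 to 6.18, with its top value in bypass replicate 2. None of these posterior probes met the detection rule for a test, so no fold change is given for them.

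Central probes were also the most often detected under a laxer rule. When a signal above the 95th percentile of the negative control spots of its array was counted as detected, 15 of the 26 Hox probes were detected on all 15 arrays. They were 4 of the 7 anterior, all 8 central and 3 of the 11 posterior probes. The posterior ones were Hoxc9, Hoxd9 and Hoxc10, so a group 10 probe met this rule. Hoxd10 and Hoxc13 met it on 12 arrays each.

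One pair of names needs care. The probe that the files call Hoxa9 matches an accession that RefSeq now gives to Hoxa7, and the probe called Hoxa9l is Hoxa9 by a RefSeq synonym. Present names are used here, which makes the detected one Hoxa7, a central gene. By the names in the files, 3 of 12 posterior probes would have passed in place of 2 of 11.

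Fold changes were tested for the 11 Hox probes with that mark on all 5 arrays of 1 or more groups. The 17029 named probes that met this rule were fitted together with limma and adjusted by the Benjamini-Hochberg method. Values are log2 of the quantile-normalized signal. In bulk tissue, fewer cells of a type and less RNA per cell cannot be told apart. The arrays differed in brightness, and sham replicate 5 and Wistar replicate 3 were the dimmest, with a 75th percentile of the signal of 224.5 on both against 329.2 to 384.3 on the other 13. The calls are also given without these 2 dimmer arrays.

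The signal of Hoxd4 was lower in the Roux limb than in the sham-operated GK jejunum, at a level near background: it was well above background on all 5 sham and 2 of 5 bypass arrays, so it entered the test only through the groups in which it was higher. It was the Hox probe past the threshold of the 11 in this comparison, where 8.36% of all 17029 probes passed. Hoxd4 is a central gene at the anterior edge of that class, known from hindbrain and cervical patterning. Its log2 signals were 4.00, 4.28, 4.08, 4.46 and 4.01 in sham replicates 1 to 5 and 3.73, 3.45, 3.97, 3.23 and 3.37 in bypass replicates 1 to 5. Every bypass array was below every sham array, as held for 8.4% of all probes. The log2 fold change was -0.62 (SE 0.14, 95% interval -0.92 to -0.31, limma adjusted p = 0.0163). As 3 bypass arrays were not well above background, the size of this log2 fold change is uncertain, and it is not restated as a ratio of signals.

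With every named probe tested and no filter, Hoxd4 had the same log2 fold change (limma adjusted p = 0.0255), and with detection required on all 15 arrays it was not tested. Without the 2 dimmer arrays the log2 fold change was -0.66 (limma adjusted p = 0.0164). It stayed past the threshold when any single array was left out (limma adjusted p from 0.00534 to 0.0433). The fits without arrays kept the 17029 probes of the main filter, so they do not check how Hoxd4 entered the test. On the slide that held 2 arrays of each group the difference was -0.65. Over 13 other limma settings 10 passed (limma adjusted p from 0.00608 to 0.188), and the Tukey comparison of the methods did not pass after adjustment over probes (adjusted p = 0.0712). With slide as a block in the fit it was -0.65 and missed the threshold (limma adjusted p = 0.188), and after normexp background correction, which adds an offset of 50 to every signal, it was -0.11 (limma adjusted p = 0.122).

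Against Wistar rats Hoxd4 also passed, with the same limit on its detection in bypass rats. Wistar replicates 1 to 5 gave 4.26, 4.00, 3.79, 3.88 and 3.94, so that bypass replicate 3, at 3.97, lay within the Wistar range and the groups overlap. The log2 fold change was -0.42 (SE 0.14, limma adjusted p = 0.045). This call is near the threshold: it was lost when any of 10 arrays was left out (limma adjusted p from 0.0518 to 0.113), and it held without Wistar replicate 3, sham replicates 4 or 5, or bypass replicates 1 or 3. Over 13 other limma settings the value ran from -0.96 to -0.10, and 7 passed (limma adjusted p from 0.0133 to 0.336). With every named probe tested, with no filter on dim ones, it missed the threshold (limma adjusted p = 0.0602). Between sham and Wistar rats Hoxd4 differed by 0.20 (95% interval -0.11 to 0.50, limma adjusted p = 0.518).

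Hoxc9 was the posterior gene that differed, and it was highest in Wistar rats. It lies in the HoxC cluster and is known for setting thoracic identity in the spinal cord and vertebrae. Its log2 signals in replicates 1 to 5 were 5.20, 5.23, 5.49, 5.27 and 5.21 in Wistar rats, 4.74, 4.99, 4.93, 5.04 and 4.18 in sham rats and 4.52, 4.61, 4.27, 4.68 and 4.73 in bypass rats. Every Wistar array was above every array of both GK groups, whereas the GK groups overlap.

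In bypass against Wistar rats the log2 fold change of Hoxc9 was -0.72 (SE 0.15, 95% interval -1.03 to -0.40, limma adjusted p = 0.00258), a signal 0.608 times as high. Of the 11 Hox probes, 2 passed in this comparison, Hoxc9 and Hoxd4, and 24.1% of all probes did. The arrays of 1 Hox probe, Hoxc9, did not overlap, and 18.3% of all probes were so separated. The call for Hoxc9 held when any single array was left out (limma adjusted p from 0.00017 to 0.008) and without both dimmer arrays (-0.67, limma adjusted p = 0.000347). No slide held arrays of both groups, and with slide as a block the value was -0.36 (limma adjusted p = 0.697). Over 14 other limma settings, that block included, it ran from -1.04 to -0.23, and 12 passed (limma adjusted p from 0.000347 to 0.697), the lowest size being that after normexp.

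In sham against Wistar rats the log2 fold change of Hoxc9 was -0.51 (SE 0.15, 95% interval -0.82 to -0.19, limma adjusted p = 0.0491). It was the Hox probe past the threshold of 11, beside 7.88% of all probes. The arrays of 2 Hox probes, Hoxc9 and Hoxa2, did not overlap between these groups, beside 9.05% of all probes. The call for Hoxc9 is at the threshold. It held without sham replicate 4 or bypass replicate 3 and was lost without any of the other 13 arrays (limma adjusted p from 0.0503 to 0.0988). Without sham replicate 5, a dimmer array with the lowest Hoxc9 value, the log2 fold change was -0.36 (limma adjusted p = 0.0585), and without both dimmer arrays -0.30 (limma adjusted p = 0.0934). Of 14 other limma settings 5 passed, with values from -0.51 to -0.14 (limma adjusted p from 0.033 to 0.959). On the slide that held 1 Wistar and 3 sham arrays the difference was -0.32.

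Between the GK groups Hoxc9 differed by -0.21 (95% interval -0.53 to 0.10, limma adjusted p = 0.446), with -0.04 on the slide with 2 arrays of each. Without the 2 dimmer arrays it was -0.36 and passed the threshold (limma adjusted p = 0.0348).

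Hoxd9, the other posterior gene on all 15 arrays and a counterpart of Hoxc9 in the HoxD cluster, did not pass in any comparison. Its log2 signals in replicates 1 to 5 were 5.10, 4.85, 5.80, 5.07 and 4.83 in Wistar rats, 4.97, 5.13, 4.43, 4.94 and 5.91 in sham rats and 4.92, 5.55, 4.70, 5.28 and 4.92 in bypass rats. The 3 groups overlap, and the highest values of Wistar and sham rats are on the 2 dimmer arrays. The log2 fold change of bypass against sham rats was 0.00, with a 95% interval of -0.53 to 0.53. Against Wistar rats it was -0.06 in each GK group. Of the 2 posterior genes measured, Hoxc9 thus passed in bypass against Wistar rats. In sham against Wistar rats it passed only at the threshold (limma adjusted p = 0.0491), a call that most omissions of 1 array removed. On all 15 arrays neither gene passed between the GK groups. Whether Hoxc9 and Hoxd9 differ from each other in their response was not tested.

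**Figure D2:**
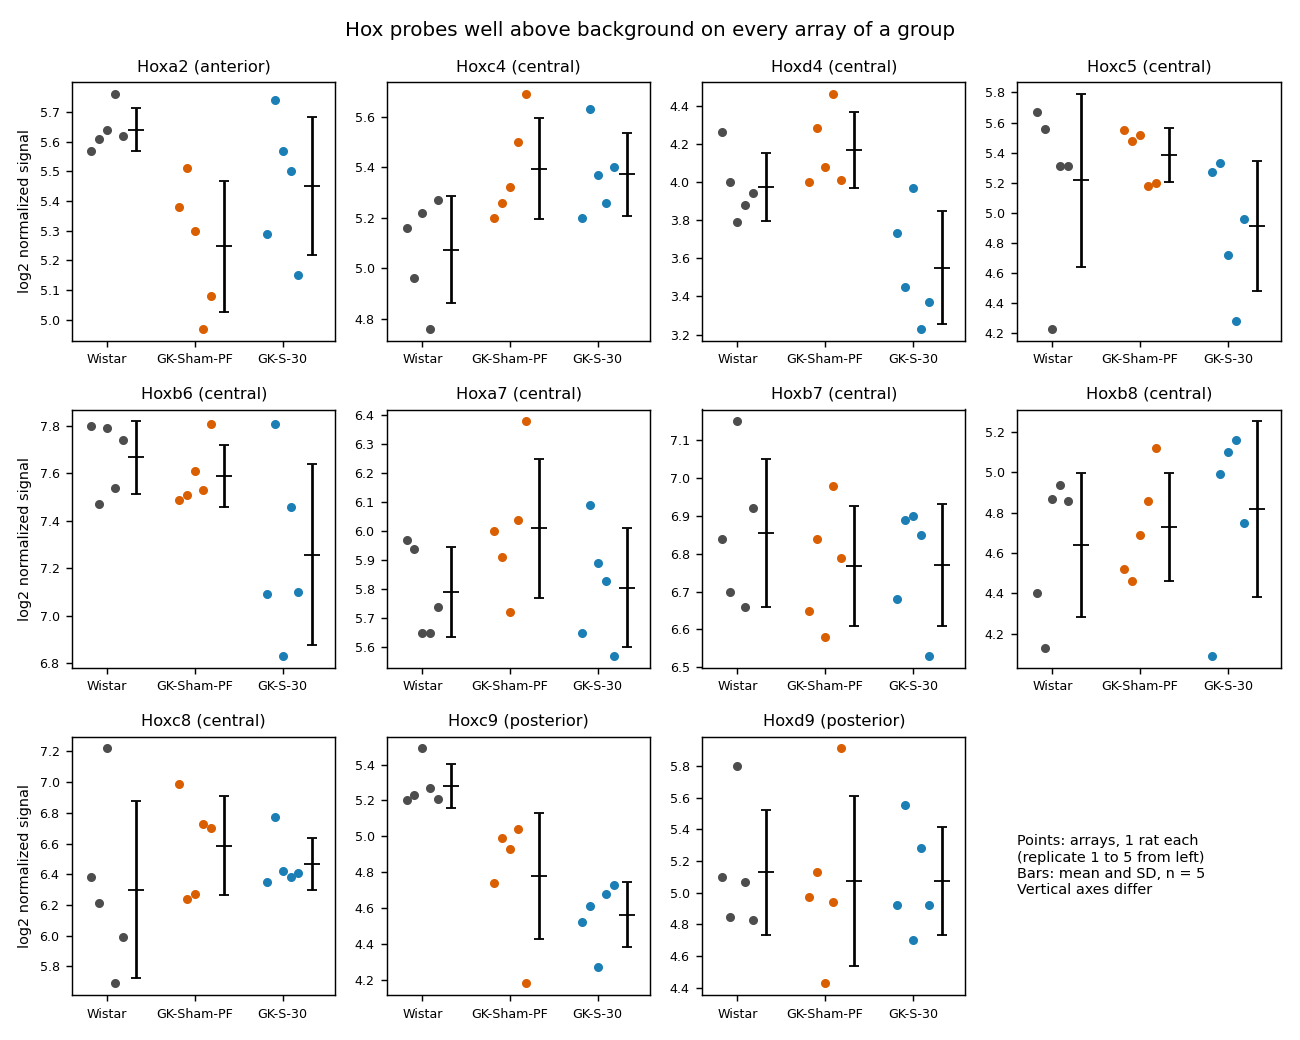
Log2 normalized signal of the 11 tested Hox probes by group, with a point for each array (replicates 1 to 5 from left) and a bar for mean and SD (n = 5); the vertical axes differ. Hoxd4 is lowest in bypass rats and Hoxc9 is highest in Wistar rats, while most other panels overlap throughout.

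Hoxa2, the most anterior member measured and a gene of hindbrain and neural crest patterning, was 5.64 ± 0.07 in Wistar, 5.25 ± 0.22 in sham and 5.45 ± 0.23 in bypass rats (mean log2 signal ± SD, n = 5). In replicates 1 to 5 it was 5.57, 5.61, 5.64, 5.76 and 5.62 in Wistar rats and 5.38, 5.51, 5.30, 4.97 and 5.08 in sham rats. The arrays of Wistar and sham rats did not overlap, yet the fold change of -0.39 missed the threshold (limma adjusted p = 0.0672). It passed without sham replicate 2 (-0.46, limma adjusted p = 0.0442) and without bypass replicate 2 (-0.39, limma adjusted p = 0.0492).

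Hoxc4, Hoxc5 and Hoxc8, central genes of the HoxC cluster used from the neck to the chest, passed in no comparison. Hoxc4 was 5.08 ± 0.21 in Wistar, 5.39 ± 0.20 in sham and 5.37 ± 0.16 in bypass rats, and its difference of sham from Wistar rats, 0.32, did not pass (limma adjusted p = 0.16). Hoxc5 was 5.22 ± 0.57, 5.39 ± 0.18 and 4.91 ± 0.43 in the same order. Its spread in Wistar rats came from replicate 3, at 4.23, and without that array the log2 fold change of bypass against Wistar rats was -0.55 and passed (limma adjusted p = 0.0448). Hoxc8 was 6.30 ± 0.58, 6.59 ± 0.32 and 6.47 ± 0.17.

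Hoxb6, Hoxb7 and Hoxb8 are their neighbors in class in the HoxB cluster. Hoxb6 was 7.67 ± 0.15 in Wistar, 7.59 ± 0.13 in sham and 7.26 ± 0.38 in bypass rats. In replicates 1 to 5 of bypass rats it was 7.09, 7.81, 6.83, 7.46 and 7.10. Replicate 2 was the highest, and the other bypass arrays ran from 6.83 to 7.46. By Dixon's ratio (0.36, limit 0.71) replicate 2 was not an outlier. With it, Hoxb6 missed the threshold against sham (-0.33, limma adjusted p = 0.22) and Wistar rats (-0.41, limma adjusted p = 0.0666). Without it, Hoxb6 passed against both, at -0.47 (limma adjusted p = 0.037) and -0.55 (limma adjusted p = 0.00682). Leaving out any other single array did not bring Hoxb6 past the threshold, so these calls rest on that omission.

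Hoxb7 was 6.85 ± 0.20 in Wistar, 6.77 ± 0.16 in sham and 6.77 ± 0.16 in bypass rats. Its 95% interval for bypass against sham rats ran from -0.24 to 0.25 on the log2 scale. Hoxb8 was 4.64 ± 0.36, 4.73 ± 0.27 and 4.82 ± 0.44 in the 3 groups, and Hoxa7, in the HoxA cluster, was 5.79 ± 0.16, 6.01 ± 0.24 and 5.80 ± 0.21. Hoxb7, Hoxb8 and Hoxa7 passed in no comparison.

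**Figure D3:**
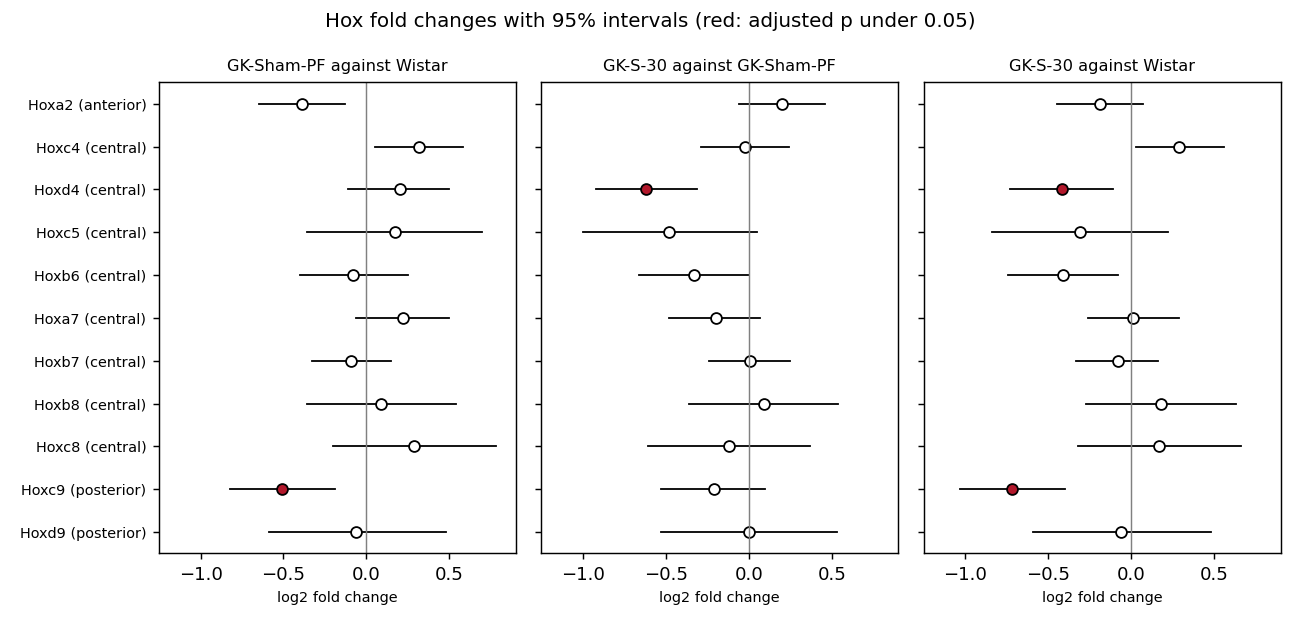
Log2 fold change of the 11 tested Hox probes in the 3 comparisons, with 95% intervals as lines and calls at an adjusted p under 0.05 in red. The calls are Hoxc9 in sham against Wistar, Hoxd4 in bypass against sham, and both in bypass against Wistar.

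The comparisons share control arrays, and each is described by its own values over the 11 tested Hox probes. Their median log2 fold change was -0.12 for bypass against sham rats, beside -0.02 over all probes tested. It was 0.09 for sham against Wistar rats, beside 0.01, and -0.08 for bypass against Wistar rats, beside -0.01. The median size of a change regardless of sign was 0.20, 0.20 and 0.19 for the Hox probes and 0.16, 0.15 and 0.23 for all probes. At an unadjusted p under 0.05, 2, 3 and 4 of the 11 Hox probes passed in these comparisons, beside 22.1%, 19.5% and 36.5% of all probes. The median standard error of a Hox fold change was 0.15 on the log2 scale.

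Smooth muscle, which descends from the mesenchyme in which Hox genes act, had higher marker signals in bypass rats. Of 14 listed markers 12 were measured. Against sham rats, where 8.36% of all probes passed, 8 rose and none fell, with a median log2 fold change of 1.05. Examples are desmin (Des), by 1.99, and enteric actin (Actg2), by 2.35. The mean over the 12 ran from 12.29 to 12.58 on bypass arrays, from 10.95 to 11.94 on sham arrays and from 11.15 to 11.77 on Wistar arrays. Every bypass mean thus lay above every other mean, so muscle content and group cannot be told apart for Hoxd4 or Hoxc9 in the comparisons with bypass rats. With the mean of these markers as a covariate, the log2 fold change of Hoxd4 against sham rats was -1.20 (SE 0.28, limma adjusted p = 0.0621). That of Hoxc9 in bypass against Wistar rats was -1.04 (SE 0.3, limma adjusted p = 0.0757). Without the covariate the SEs were 0.14 and 0.15. These adjusted values reach beyond the shared range of the groups, and no conclusion is drawn from them. The means of sham and Wistar arrays overlap, and 0 of the 12 markers passed between them. With the covariate the log2 fold change of Hoxc9 in sham against Wistar rats was -0.48 (SE 0.15, limma adjusted p = 0.0587), beside -0.51 without it. The part of muscle in that value was not tested further.

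Markers of other cells of the wall moved less evenly, beside the same 8.36% of all probes. Of 13 fibroblast and mesenchyme markers measured, 5 rose and 1 fell between bypass and sham rats, with means of 9.36 to 9.55 on bypass arrays and 9.08 to 9.38 on sham arrays. Of 12 epithelial markers 2 rose and none fell, and their mean ran from 14.79 to 15.36 over the 15 arrays. The part of fibroblasts and epithelium in the Hox values was not tested.

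**Figure D4:**
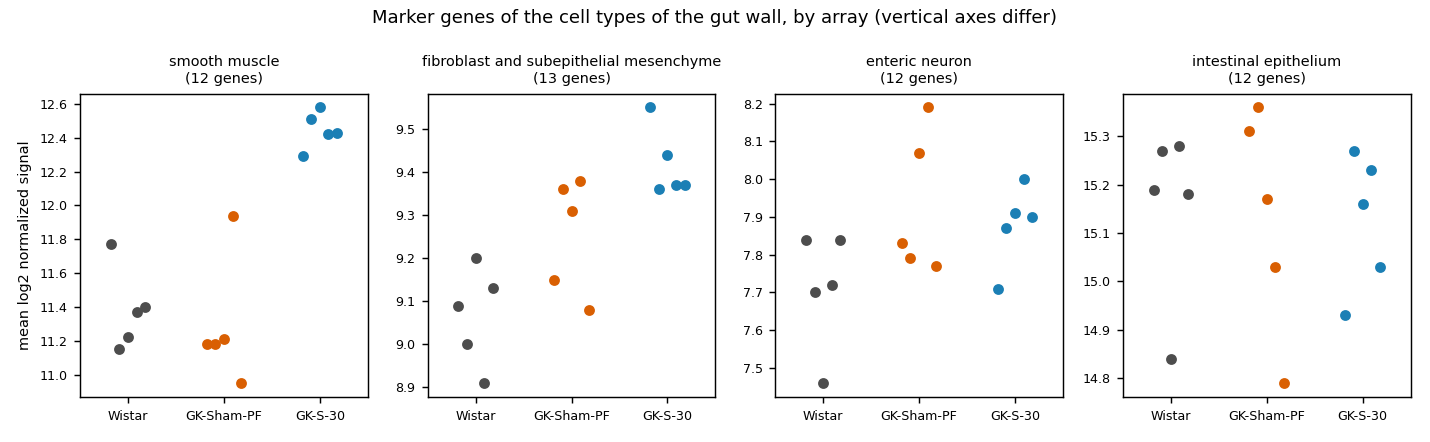
Mean log2 normalized signal of marker genes of 4 cell types, with a point for each array, by group. The smooth muscle means of the 5 bypass arrays, from 12.29 to 12.58, lie above those of the other 10 arrays, while the epithelial means overlap.

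Of genes that act with or upstream of Hox genes, 4 lists were examined, beside the 8.36% of all probes called between the GK groups. Of 9 cofactors measured (the PBX, MEIS, PKNOX and TGIF families), 1 rose, Pbx4, by 0.70 (SE 0.14, limma adjusted p = 0.00553), and none fell. Among 5 ParaHox and caudal genes, relatives of the Hox clusters, Gsx1 fell by 0.71 (limma adjusted p = 0.0423), and the caudal genes Cdx1 and Cdx2 did not pass. Of 18 Polycomb and Trithorax genes, which keep Hox clusters silent or active, 1 fell, Cbx7, by 0.31 (limma adjusted p = 0.0483).

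Retinoic acid induces Hox genes in the embryo, and of 15 genes of its synthesis, breakdown and receptors 1 rose and 1 fell. Rdh10, which makes retinal from retinol, rose by 0.42 (limma adjusted p = 0.0132), and Crabp2, a carrier of retinoic acid, fell by 0.65 (limma adjusted p = 0.0315). Against Wistar rats, where 24.1% of all probes passed, 2 of these genes rose and 5 fell in bypass rats, and Aldh1a1, which makes retinoic acid from retinal, fell by 1.32 (limma adjusted p = 0.0143). The median over the 15 genes was -0.28, beside -0.01 for all probes. In the same comparison Pbx4 rose by 0.46 and the caudal gene Cdx1 rose by 0.26. Of the Polycomb and Trithorax genes Cbx7 fell by 0.41, Kdm6a fell by 0.60 and Kdm6b fell by 0.35 (limma, adjusted p under the threshold).

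Between sham and Wistar rats, where 7.88% of all probes passed, 2 genes of these lists did. Pbx2, a cofactor, fell by 0.73 (limma adjusted p = 0.0252), and Crabp1, a carrier of retinoic acid, rose by 0.72 (limma adjusted p = 0.00797). None of the ParaHox and caudal or of the Polycomb and Trithorax genes passed.

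Some genes that mark positions along the adult intestine had fold changes well beyond those of the Hox probes, a description that was not tested. Of all probes, 8.36% passed between bypass and sham rats and 24.1% between bypass and Wistar rats. Of 7 listed genes of the distal small intestine, 3 rose in bypass against sham rats: Slc10a2, the ileal bile acid transporter, by 3.43 (SE 0.30, limma adjusted p = 9.39e-06), Fabp6, the ileal bile acid binding protein, by 1.71 (limma adjusted p = 0.0211), and Gcg, the glucagon precursor, by 0.42 (limma adjusted p = 0.0459). None fell, and Cubn, the cubilin receptor, was at -2.20 (limma adjusted p = 0.051). Between sham and Wistar rats Slc10a2 fell by 2.41 (limma adjusted p = 5.99e-05), and between bypass and Wistar rats it rose by 1.02 (limma adjusted p = 0.0206). In that last comparison Fabp6 also rose, by 2.08, while Cubn fell by 2.34 and Pyy fell by 1.03 (limma, adjusted p under the threshold). In bypass against sham rats, of 11 genes of the proximal small intestine 2 rose, Sct (secretin) by 0.90 (limma adjusted p = 0.00987) and Slc11a2, an iron transporter, by 1.5 (limma adjusted p = 0.0438). Of 8 genes of the colon 1 rose, Car4, by 0.58 (limma adjusted p = 0.0148), and none fell. As whole lists they moved little: the median log2 fold change was 0.16 (distal), 0.19 (proximal) and 0.01 (colon), beside -0.02 over all probes. In the same comparison Hoxc9 was at -0.21 and Hoxd9 at 0.00, and the 7 probes of groups 10 to 13 were below the detection rule in both groups.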

How the data were processed

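Per the labels and methods, total RNA of each rat was labelled with 1 dye (Cy3) and hybridized to an Agilent whole rat genome array read with Feature Extraction 10.7. The array files hold intensity values that the authors deposited as the software wrote them, background-subtracted and not normalized between arrays. The series table holds log2 values that the authors had quantile-normalized. They served as an alternative.

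Without control and outlier spots, the processed signals were averaged per probe, put on the log2 scale and quantile-normalized over 41012 probes (limma 3.58.1, R 4.3.3). Of 22503 named probes, the 17029 with a signal well above background on all 5 arrays of 1 or more groups were fitted (lmFit, contrasts.fit, eBayes; 15 arrays, no covariate), with Benjamini-Hochberg adjustment at 0.05. The fit was tested on simulated data. Symbols follow RefSeq (GRCr8). Positions are those of the files (rn4). No spot was saturated. On single arrays 66.7% to 74.8% of probes were well above background. The number of arrays limits the precision.

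Members, lists and tests were chosen with earlier results of these data known. Named were the Hox probes (1 of the 26 is counted but not reported singly here), and of other lists up to 4 called genes per list and comparison, by smallest adjusted p. Replicate numbers did not pair the rats.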

Additional observations from a re-analysis of the deposited data

Results flagged for a closer look

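In 57 groups of 5 arrays (19 Hox probes detected on at least 1 array, in 3 groups), 7 had an array whose gap to its nearest neighbor was above Dixon's 95% limit. Chance alone marks about 1 group in 20. Wistar replicate 3, a dimmer array, stood apart 4 times: at a log2 signal of 4.23 in Hoxc5 below the other Wistar arrays, and at 5.49 in Hoxc9, 5.80 in Hoxd9 and 4.34 in Hoxc10 above them. Bypass replicate 2 stood apart at 6.77 in Hoxc8. Hoxa9 reached 4.69 in sham replicate 4 and Hoxc13 reached 4.53 in bypass replicate 5, both probes that lacked the mark of well above background on most arrays. Without Wistar replicate 3 the log2 fold change of Hoxc9 was -0.67 in bypass against Wistar rats (limma adjusted p = 0.0069) and -0.45 in sham against Wistar rats (limma adjusted p = 0.0949).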

How the results depend on the processing

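The counts of Hox probes called by limma were 1 for bypass against sham rats, 1 for sham against Wistar rats and 2 for bypass against Wistar rats, and no called probe changed its direction under any alternative. For bypass against sham rats the count was 0 after normexp, with slide as a fixed block, with the smooth muscle covariate, by the Tukey comparison of the methods adjusted over probes and with detection required on all 15 arrays (which leaves Hoxd4 untested), and 2 without the 2 dimmer arrays. For sham against Wistar rats it was 0 over all probes, named or not, with no filter on dim probes, after normexp, with only the 2 groups fitted, after scaling to the 75th percentile, with the fixed slide block, with the covariate, by the adjusted Tukey comparison and without the dimmer arrays, and 2 with slide as a random block and by the Tukey comparison not adjusted over probes (an alternative chosen after seeing the data). For bypass against Wistar rats it was 1 with no filter, after normexp, with only the 2 groups fitted, by the adjusted Tukey comparison and with detection on all 15 arrays, 0 with the fixed slide block and with the covariate, and 3 without the dimmer arrays, when Hoxc5 also passed (-0.55, limma adjusted p = 0.0425). Leaving out 1 array at a time gave 1 to 2, 0 to 1 and 1 to 3 Hox probes in the 3 comparisons, in the same order. The cause of these shifts was not tested.

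With the replicate number as a block, 0 Hox probes passed for sham against Wistar rats (Hoxc9, limma adjusted p = 0.0978) and 1 for bypass against Wistar rats, where Hoxd4 was lost (limma adjusted p = 0.087). Same-numbered arrays correlated by -0.29 to 0.20 in their deviations, over 0.1 in 3 of 15 pairs, so the numbers were not taken to pair the rats. Over all probes tested, in the order of comparisons above, calls numbered 1424, 1342 and 4101. They numbered 327, 210 and 268 with the fixed slide block, 152, 1499 and 667 with the covariate, 565, 823 and 2688 by the adjusted and 2563, 2370 and 4687 by the unadjusted Tukey comparison, and 1869, 2184 and 6352 over named and unnamed probes.

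With detection as a signal above the 95th percentile of the negative control spots, the median number of Hox probes detected per array was 20 in place of 12. Dim probes, 5 arrays a group and slides that nearly follow the groups limit what can be told: bypass and Wistar rats shared no slide.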

Other observations

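Some markers of other cells of the wall also passed, which does not show that the cell type differed. The part of these cells in the Hox values was not tested. Between bypass and sham rats, where 8.36% of all probes passed, 2 of 12 neuronal genes did. Tac1, the substance P precursor, rose by 0.82 and Prph, peripherin, fell by 0.61. Of 8 leukocyte genes 2, the T cell genes Cd3e and Cd3g, fell by 0.76 and 0.47, and 1 of 4 glial genes (Gfap) fell by 0.32. Of 4 endothelial genes Vwf rose by 0.55, and of 7 pancreatic acinar genes Ctrb1 fell by 0.92. The median log2 fold changes were -0.04 (neuronal), -0.34 (leukocyte), -0.33 (glial), -0.05 (endothelial) and -0.32 (acinar), beside -0.02 over all probes. None of 3 gastric genes and none of 3 genes of interstitial cells of Cajal passed (limma, adjusted p). Between sham and Wistar rats 7.88% of all probes passed. Of 7 acinar genes 1 did, the amylase gene Amy2a3, which rose by 4.12 (limma adjusted p = 0.000195). Of 13 mesenchymal genes 1 did, the signal Bmp4, which rose by 1.32 (limma adjusted p = 0.000425). Of 12 neuronal genes Vip rose by 0.71 (limma adjusted p = 0.0264). Of 8 leukocyte genes 3 passed, with a list median of 0.12. Itgam, a myeloid integrin, fell by 2.08 (limma adjusted p = 6.43e-06). Cd79a and Cd79b rose by 0.82 (limma adjusted p = 0.0246) and 0.98 (limma adjusted p = 0.0381).

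Another 7 probes belong to Hox transcripts by their description although the files give them no Hox gene name. Of these, 5 were well above background on all 15 arrays and 1, described as similar to HOXA10, on none. The transcript described as Hox-A5 had 2 probes, with group means of 9.77 and 10.62 (log2 signal) in Wistar, 10.11 and 11.02 in sham and 9.64 and 10.65 in bypass rats. Their log2 fold changes of bypass against sham rats were -0.47 (SE 0.15, limma adjusted p = 0.0759) and -0.37 (SE 0.28, limma adjusted p = 0.521). The Hoxb2 transcript was 4.91, 4.92 and 4.91 in the 3 groups. In a limma fit over 27892 probes, named or not, 0 of the 5 tested passed in any comparison, and 1 had an unadjusted p under 0.05.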
